A study of Mus musculus with 12 samples.

Results

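The proteasome is the large protease that degrades most proteins marked with ubiquitin, and the genes of its constitutive form were described here in the hearts of control, diabetic and angiotensin IV treated diabetic mice. The set was fixed by gene name: 36 genes of the catalytic core (20S), of the regulatory cap (19S) and of a few factors that cap, inhibit or help assemble them, with the immunoproteasome left out. Of these, 35 had a probe set, 1 each, and all 35 passed the filter on dim genes, out of 13653 genes tested. Psmb5, the core subunit with chymotrypsin-like activity, was not analysed here.

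RNA from myocardium was measured on single-colour Affymetrix arrays in 12 mice, 4 in each of 3 groups. Negative control mice (NC) received vehicle injections into the peritoneum for 5 days. Diabetic mice (DM) received streptozotocin, a toxin of the insulin-producing beta cells, for the same 5 days and were kept if fasting glucose reached 16.7 mM 2 weeks later. The third group (AngIV) was made diabetic in the same way and then received an infusion of high-dose angiotensin IV, a short angiotensin peptide. The infusion delivered 2.88 mg/kg/day, starting at the end of week 8 and stopping at the end of week 24. Tissue of every group carries the label 6 months. They give no strain or sex, and no group of control mice with angiotensin IV was analysed here, so the peptide was seen only on top of diabetes. The sample titles were used for the groups, because a disease state tag contradicts them for NC, which it names diabetic, and for AngIV, which it names a control. Each array was taken as 1 mouse, as the series design describes.

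In the 26S proteasome a barrel of stacked rings does the cutting and a cap at its end selects what enters. The outer rings are built of alpha subunits (Psma genes) that gate the barrel, and the inner rings of beta subunits (Psmb genes), a few of which carry the catalytic threonine. The base of the cap holds ATPases (Psmc genes) that unfold the substrate, and its lid and ubiquitin receptors (Psmd genes) bind the substrate and remove the ubiquitin chain. The heart depends on this system to turn over sarcomeric and damaged proteins, and the transcription factor NRF1 (Nfe2l1) is known to raise many proteasome genes together when the protease is inhibited.

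Promoters are shown for the 4 members on which the results below turn and for which a window was found: Psmd4 and Psma6, called in AngIV against NC, and Psme4 and Psmd6, which had the smallest p-values in AngIV against DM. Each run is the RefSeq window of 300 bases, from 250 before to 50 after the start of the gene, in build GRCm38.p6, printed along the gene's strand. Capitals mark matches on either strand to 3 motifs: TGACNNNGC, the core of the antioxidant response element bound by NRF1 and its relative NRF2, CCGGAAG, a core bound by ETS factors, and CCAAT, the box bound by NF-Y. Matches to different motifs did not overlap in these 4 windows.
Psmd4 (chr3:95042565-95042864, - strand): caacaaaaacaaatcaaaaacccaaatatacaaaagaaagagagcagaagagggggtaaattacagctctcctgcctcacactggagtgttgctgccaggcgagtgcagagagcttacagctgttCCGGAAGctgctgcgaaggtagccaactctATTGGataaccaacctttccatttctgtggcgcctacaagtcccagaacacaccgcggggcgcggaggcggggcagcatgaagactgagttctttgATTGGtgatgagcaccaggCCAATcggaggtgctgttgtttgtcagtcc
Psma6 (chr12:55398575-55398874, + strand): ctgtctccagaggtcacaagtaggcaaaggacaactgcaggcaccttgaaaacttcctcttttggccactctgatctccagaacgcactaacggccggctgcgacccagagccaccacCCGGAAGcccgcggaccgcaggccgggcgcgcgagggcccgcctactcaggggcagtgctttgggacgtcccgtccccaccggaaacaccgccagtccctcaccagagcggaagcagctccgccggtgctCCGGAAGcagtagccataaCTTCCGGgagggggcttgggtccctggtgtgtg
Psme4 (chr11:30771525-30771824, + strand): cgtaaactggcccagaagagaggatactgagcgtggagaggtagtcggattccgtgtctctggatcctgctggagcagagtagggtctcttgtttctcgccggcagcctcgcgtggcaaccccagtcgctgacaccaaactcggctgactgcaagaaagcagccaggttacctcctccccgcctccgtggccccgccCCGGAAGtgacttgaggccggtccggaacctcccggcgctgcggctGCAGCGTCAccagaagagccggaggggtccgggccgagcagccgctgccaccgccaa
Psmd6 (chr14:14120896-14121195, - strand): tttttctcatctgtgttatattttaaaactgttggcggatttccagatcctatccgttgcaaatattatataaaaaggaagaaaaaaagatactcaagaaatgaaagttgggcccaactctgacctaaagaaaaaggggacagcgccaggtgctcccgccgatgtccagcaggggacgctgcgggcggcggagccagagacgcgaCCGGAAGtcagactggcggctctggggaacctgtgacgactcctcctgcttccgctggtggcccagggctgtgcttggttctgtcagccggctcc
Of the 35 measured members 29 had a window, in 31 windows altogether. The ETS core was in a window of 11 of the 29 members, or 37.9%, against 9.93% of 27025 genes. Those genes were not limited to the ones tested on the arrays, and they were not matched for GC content. Its median was 56.7% in the windows of the members and 52.7% in all windows. In Psma6 the ETS core occurred 3 times in the window shown and was not in a further window of the same gene. In Psme4 it lay 53 bases and in Psmd6 45 bases before the start. The CCAAT box was in 37.9% of the members and in 41.1% of genes, and it occurred 3 times in the window of Psmd4. The antioxidant response element core was in 5 of the 29 members (17.2%), against 14% of genes: Psmb6, Psmc6, Psmd9, Psmd12 and Psme4. Among the 9 members with a window and an unadjusted p under 0.05 in some comparison it was in 1, Psme4, and among the other 20 in 4. These matches describe letters in the windows and no binding was measured. The ETS and CCAAT motifs were chosen after the sequences were seen.

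The samples carried the markers of heart muscle cells on every array and those of atrial muscle on some. The mean log2 signal of 10 cardiomyocyte genes lay between 11.3 and 11.5 on the 12 arrays. Most of these genes are also expressed in atrial muscle, so they do not set the ventricle apart. Their mean lay far above the background, which lay between 5.39 and 5.60. The background was taken as the level that 95% of the negative control probes stay under. The mean of the 3 atrial genes Myl7, Myl4 and Sln ran from 4.89 to 9.80 in NC, from 4.93 to 9.25 in DM and from 4.50 to 4.92 in AngIV. It lay under the background on every AngIV array, on NC replicates 2 and 4 and on DM replicate 3. On the other NC and DM arrays it was 7.75 or more, so the comparisons with AngIV also differ in atrial signal. All 3 genes were lower in AngIV than in DM at an unadjusted limma p under 0.05. The 16 tested interferon response genes had means of 4.59 to 4.92 in NC, 4.85 to 5.17 in DM and 5.03 to 5.74 in AngIV, and the 10 macrophage markers 5.70 to 5.92, 5.71 to 6.83 and 5.76 to 6.61. The 7 fibroblast markers had means of 7.35 to 7.78, 7.22 to 7.47 and 6.99 to 7.36. The part of these cells in the results below was not tested, except where a value with the atrial covariate is given. In whole tissue, fewer cells of a type and less RNA per cell cannot be told apart.

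**Figure D1:**
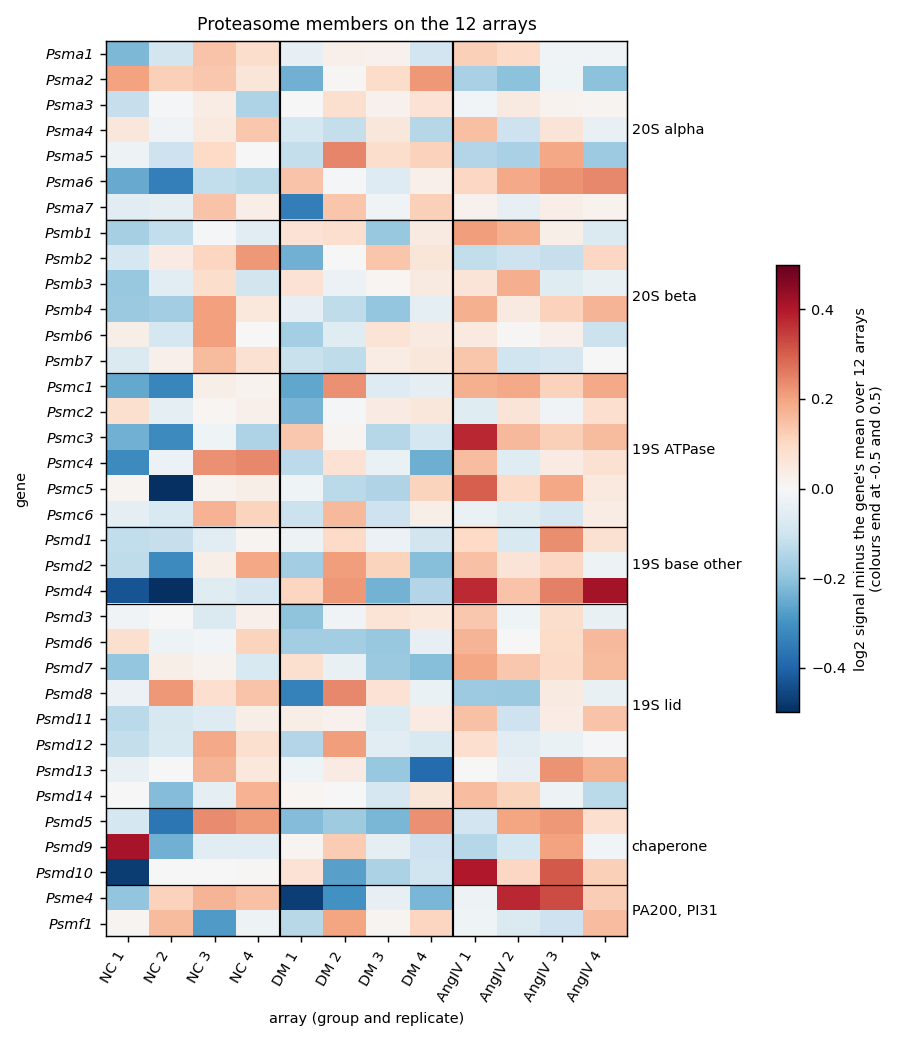
Log2 signal of each of the 35 proteasome members (rows, ordered by role) on each of the 12 arrays (columns), minus the mean of that gene over the 12 arrays. Psmd4 runs from low on the NC arrays (7.31 to 7.80) to high on the AngIV arrays (8.00 to 8.27), and Psme4 is low on the DM arrays (7.55 to 7.98).

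The proteasome genes differed little in their mean between the 3 groups. Averaged over the 35 members, the log2 signal (mean ± SD, n = 4) reached 7.63 ± 0.09 for NC, 7.62 ± 0.05 for DM and 7.71 ± 0.03 for AngIV. On NC replicates 1 to 4 it was 7.56, 7.55, 7.71 and 7.69, on the DM arrays 7.56, 7.68, 7.61 and 7.63, and on the AngIV arrays 7.74, 7.68, 7.73 and 7.71. Thus 2 NC arrays lay at the AngIV level and the other 2 lay lowest, with 1 DM array. On NC replicates 1 and 2, 16 and 15 of the 35 members had their lowest value of the group, against 2 and 2 on replicates 3 and 4. The background level was 5.57 and 5.55 on NC replicates 1 and 2 and 5.40 and 5.39 on replicates 3 and 4. It was 5.60 on DM replicate 1 and 5.59 on AngIV replicate 1, the lowest and the highest array of their groups by the mean of the members. The median SD within a group was 0.12 for the members and 0.18 for all genes tested in NC, 0.13 and 0.17 in DM, and 0.11 and 0.15 in AngIV. For genes of like brightness the SD was not computed. The median standard error of a log2 change, a different measure that pools spread across genes, was 0.102 for the 31 members with a mean log2 signal from 6 to 10. It was 0.112 for all genes in that range and 0.127 for all genes tested. The smallest SD was that of Psmd3, a lid subunit, in NC (0.04) and that of Psma3, an alpha subunit, in DM (0.04) and AngIV (0.02).

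By the order of the group means, AngIV was highest for 21 of the 35 members, or 60%, against 37.5% of all genes tested and 45.5% of the 4612 genes with a mean log2 signal from 6 to 10. That range holds 31 of the members and is given as a second background, chosen after seeing the data, since brighter genes more often had a positive change in AngIV. The order NC, DM, AngIV from low to high was found for 12 members and the order DM, NC, AngIV for 9. These orders come from group means that often differ by less than the spread between mice.

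Diabetes alone was the comparison of DM against NC. No member passed the test over all genes (limma, Benjamini-Hochberg adjusted p under 0.05), where 0% of genes were higher and 0.022% lower (0.0434% lower among genes with a log2 signal from 6 to 10). At an unadjusted p under 0.05, 1 of 35 members was higher, Psma6, against 5.62% of all genes and 7.22% of genes with a log2 signal from 6 to 10. At that level 1 member was lower, Psme4, against 5.08% and 6.2%. DM lay wholly above NC for 1 member, Psma6, against 2.84% and 4.36%, and wholly below for 1, Psmd6, against 2.45% and 3.3%. The median log2 change of the members was -0.02 and that of all genes -0.00, and 15 of 35 members had a positive change, 42.9% against 49.6% of all genes and 49% of those with a log2 signal from 6 to 10. The 95% interval of the change lay within 1.5-fold either way for 34 of the 35 members, against 86.5% of all genes and 89.8% of those with a log2 signal from 6 to 10. The exception was Psme4. Psmd5, and Psmd10 in DM, lay below background, so their intervals give no size of change.

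**Figure D2:**
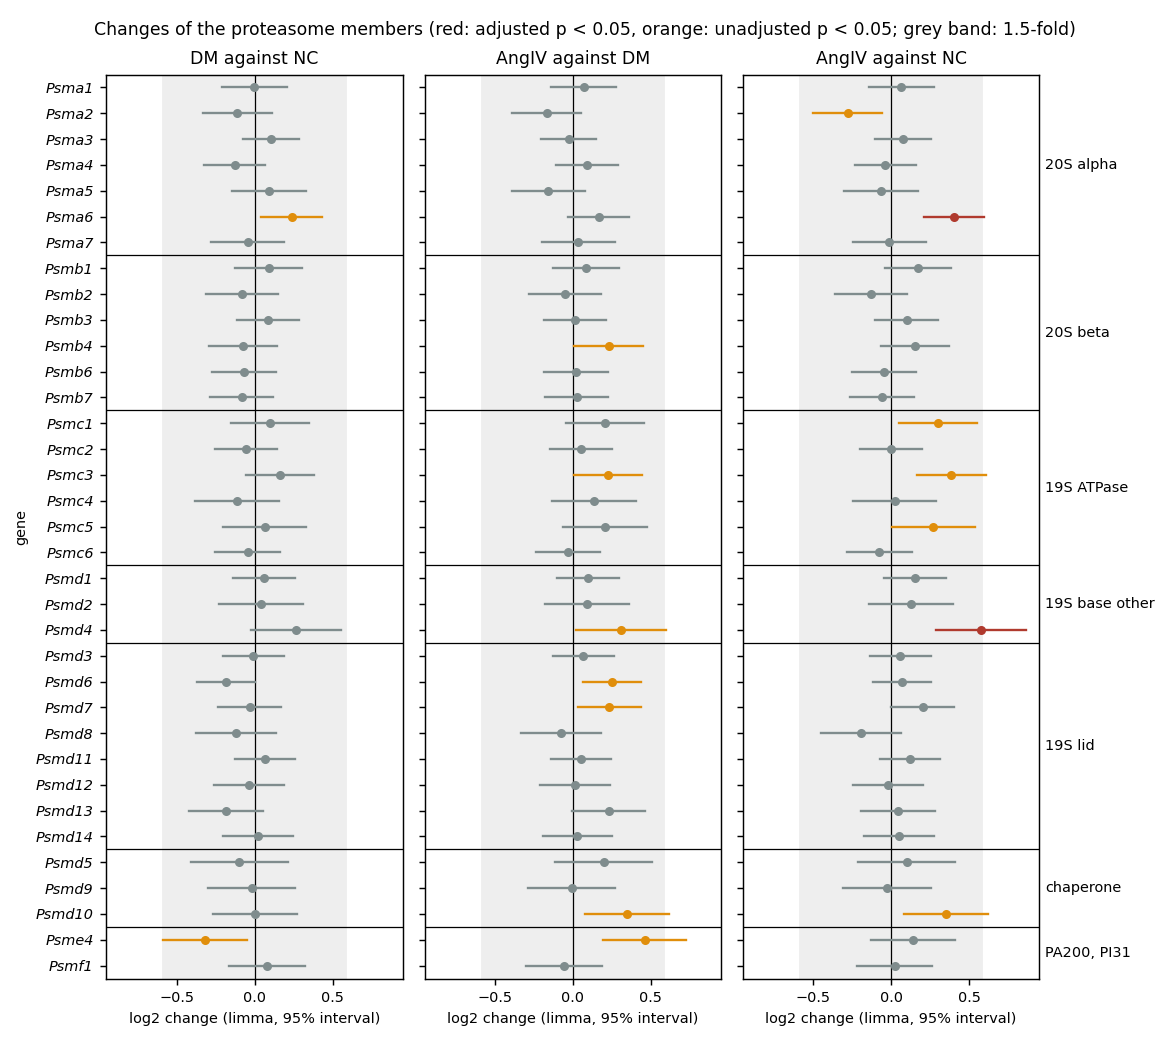
Log2 change of each member with its 95% limma interval in the 3 comparisons, with a grey band for 1.5-fold either way. In DM against NC and AngIV against DM no member passes the adjusted threshold, and in AngIV against NC Psma6 and Psmd4 do, at 0.40 and 0.58; the chaperone Psmd5, and Psmd10 in DM, lay below background, so their intervals give no size of change.

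Angiotensin IV in diabetic mice was the comparison of AngIV against DM. No member and no other gene passed limma's adjusted threshold (0% of genes in either direction). With the unadjusted p under 0.05 as the rule, 7 of 35 members were higher, or 20% against 5.27% of all genes and 7.7% of genes with a log2 signal from 6 to 10. None was lower (0 of 35), against 3.51% and 2.75%. The 7 were Psme4, Psmd6, Psmd10, Psmd7, Psmd4, Psmb4 and Psmc3, with limma adjusted p-values from 0.372 to 0.554. Psmd10 is counted here and among the members without overlap below, although its DM mean lay below the negative control level. The median log2 change was 0.07 for the members, 0.01 for all genes and 0.04 for the genes of log2 signal 6 to 10. A positive change was found for 27 of 35 members (77.1%), against 52.9% and 59.9% in those backgrounds. For 5 members no AngIV array overlapped a DM array, all of them higher, or 14.3% against 3.57% of all genes and 6.05% of those with a log2 signal from 6 to 10, and 0 lay wholly lower, against 2.19% and 1.76%. The size stayed small, with a 95% interval within 1.5-fold either way for 32 of 35 members (91.4%). The shares were 87.8% of all genes and 91.4% of genes with a log2 signal from 6 to 10. Exceptions among the members were Psmd4, Psmd10 and Psme4. Psmd5, below background in every group, is counted among the 32.

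The count of 7 depended on single arrays and on scaling. It was 2 without AngIV replicate 1, 3 without AngIV replicate 4 and 3 without DM replicate 3. Of all genes 4.54%, 3.98% and 3.95% were higher in those fits. The count was 3 with each array centred on its cardiomyocyte genes, a scaling that left 2.81% of all genes higher. With the mean of the 3 atrial markers as a covariate it was 3, against 5.06% of all genes. With the replicate number as a block it was 4, against 4.75%. The number with a positive change was 21 under the centring on cardiomyocyte genes, against 41.2% of all genes, and 27 with the atrial covariate, against 50.5%. With the level of the negative controls as a covariate, chosen after seeing the data, 6 members were higher, against 5.6% of all genes.

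**Figure D3:**
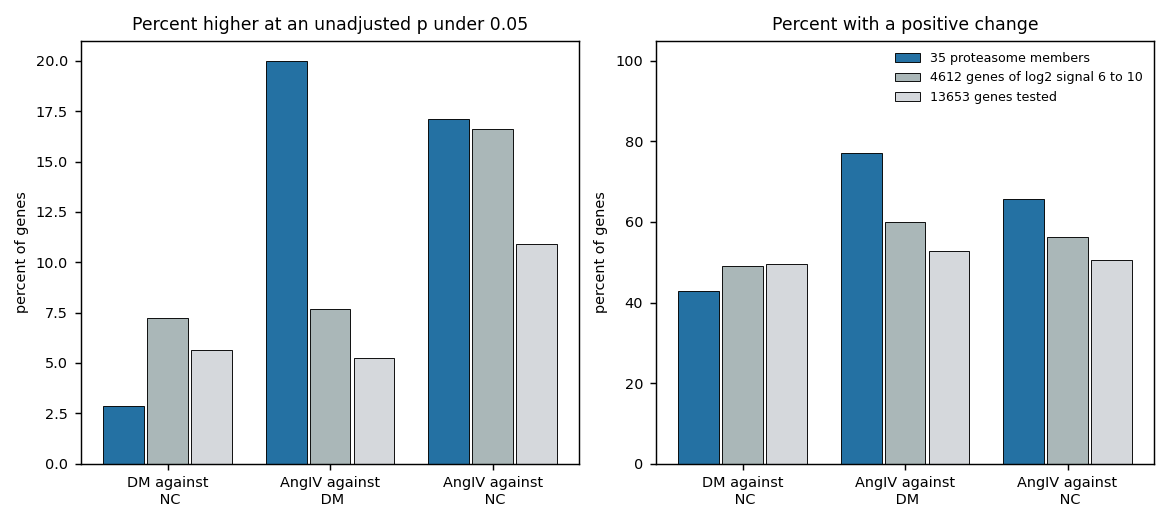
Percent of genes higher at an unadjusted limma p under 0.05 (left) and percent with a positive change (right) in each comparison, for the 35 members, the 4612 genes with a mean log2 signal from 6 to 10 and all 13653 genes tested. The members stand above both backgrounds in AngIV against DM, at 20% against 7.7% and 5.27%, and at the level of genes of like brightness in AngIV against NC, at 17.1% against 16.6%. These shares are over all 35 members, of which 31 lie in the range from 6 to 10. Psmd10, dimmer than that range, is counted in both.

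Treated diabetic mice were then set against controls. In AngIV against NC, 2 of the 35 members rose at an adjusted p under 0.05 (limma), Psmd4 and Psma6, and 0 fell, where 1.52% of all genes were higher and 0.623% lower, or 2.67% and 0.954% of genes with a log2 signal from 6 to 10. By the unadjusted p under 0.05, 6 members were higher and 1 was lower, or 17.1% and 2.86%, against 10.9% and 7.74% of all genes and 16.6% and 9.41% of genes with a log2 signal from 6 to 10. The share of higher members was thus near that of equally bright genes. The median log2 change was 0.07 for the members, 0.00 for all genes and 0.03 for genes of log2 signal 6 to 10. For 7 members all AngIV arrays lay above all NC arrays, 20% against 7.59% of all genes and 13.5% of the brighter ones, and for 1, Psma2, all lay below, against 5.17% and 8.13%. A positive change was found for 23 of 35 members (65.7%), against 50.6% and 56.2%. The 95% interval lay within 1.5-fold either way for 31 of 35 members, against 81.1% and 82.3%. Psmd5, below background in every group, is counted among the 31. This comparison shares its arrays with the other comparisons, so the 3 sets of changes are not independent.

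**Figure D4:**
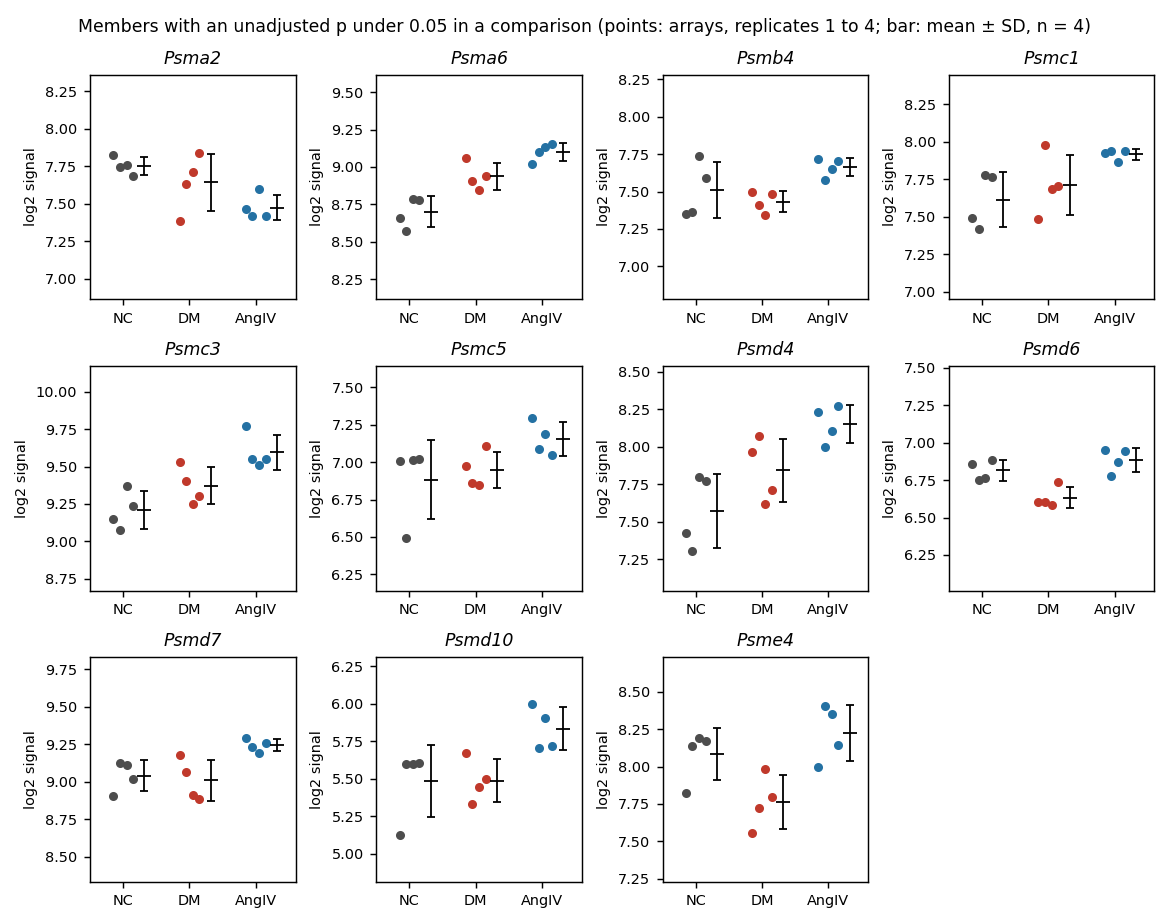
Log2 signal of the 11 members with an unadjusted p under 0.05 in at least 1 comparison, with 1 point for each array in the order of replicates 1 to 4 and a bar for the mean ± SD (n = 4); every panel spans 1.5 log2 units. Psmd4 and Psma6 step up from NC to AngIV, Psme4 and Psmd6 are lowest in DM, and Psma2 is lowest in AngIV.

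Among the ubiquitin receptors and scaffold subunits of the cap base, Psmd4 had the widest change of all members. Psmd4 encodes the receptor that docks ubiquitin chains on the cap. Its log2 signal was 7.43, 7.31, 7.80 and 7.77 on NC replicates 1 to 4, 7.96, 8.07, 7.62 and 7.71 on the DM arrays and 8.23, 8.00, 8.11 and 8.27 on the AngIV arrays. Every AngIV array lay above every NC array, while the DM arrays overlapped both. Psmd4 rose by 0.58 ± 0.14 (SE) on the log2 scale in AngIV against NC, or 1.49-fold (limma adjusted p = 0.0402). In DM against NC its change was 0.27 ± 0.14 (limma adjusted p = 0.515) and in AngIV against DM 0.31 ± 0.14 (limma adjusted p = 0.545). The call against NC was lost without any 1 of 6 arrays: the limma adjusted p was 0.0975 and 0.106 without NC replicates 1 and 2, and 0.0798, 0.0596, 0.0899 and 0.106 without AngIV replicates 1 to 4. It was 0.0796 with the replicate number as a block, and the call was kept without NC replicates 3 and 4 and without each DM array. The large scaffold subunits Psmd1 and Psmd2 had changes of 0.15 ± 0.09 and 0.13 ± 0.13 in the same comparison and were not called, and their groups overlapped.

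The 7 alpha subunits of the outer rings moved in both directions. Psma6 had log2 signals of 8.66, 8.57, 8.79 and 8.78 in NC, 9.06, 8.91, 8.85 and 8.94 in DM and 9.02, 9.10, 9.14 and 9.15 in AngIV. Both diabetic groups lay wholly above NC. Psma6 rose 1.32-fold in AngIV against NC, by 0.40 ± 0.09 (SE) on the log2 scale (limma adjusted p = 0.0339), and had a change of 0.24 ± 0.09 in DM against NC (unadjusted p = 0.0197, limma adjusted p = 0.356). The adjusted p in AngIV against NC was 0.0729, 0.0934 and 0.0528 without NC replicates 1, 2 and 4, and 0.0827, 0.0938 and 0.0943 without AngIV replicates 2 to 4 (limma). It was 0.0733 with the replicate number as a block and 0.0579 with the atrial covariate. With no filter on dim genes, which raises the number of genes tested, it was 0.0621 for both Psma6 and Psmd4.

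Psma2 went the other way. Its log2 signal was 7.83, 7.74, 7.76 and 7.69 in NC, 7.39, 7.63, 7.71 and 7.84 in DM and 7.46, 7.42, 7.60 and 7.42 in AngIV. The AngIV arrays lay wholly below NC, while DM spanned both groups. The change in AngIV against NC was -0.28 ± 0.10 (SE), with an unadjusted p of 0.0178 and a limma adjusted p = 0.17, and it was not called. The other 5 alpha subunits, Psma1, Psma3, Psma4, Psma5 and Psma7, had changes between -0.16 and 0.10 in the 3 comparisons, and none of them separated any pair of groups.

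Of the 6 measured beta subunits, the inner rings' building blocks, none was called in any comparison. The catalytic subunits measured were Psmb6, with caspase-like activity, and Psmb7, with trypsin-like activity. Psmb6 read 8.17, 8.05, 8.35 and 8.14 in NC, 7.97, 8.08, 8.21 and 8.19 in DM and 8.19, 8.15, 8.16 and 8.03 in AngIV. Psmb7 read 8.37, 8.47, 8.60 and 8.52 in NC, 8.33, 8.31, 8.48 and 8.50 in DM and 8.58, 8.34, 8.36 and 8.44 in AngIV. For both, all 3 groups overlapped. The 95% interval of the change in DM against NC ran from -0.27 to 0.14 for Psmb6 and from -0.29 to 0.12 for Psmb7, and in AngIV against DM from -0.18 to 0.23 for each. Psmb4, a structural beta subunit, was the 1 member of this ring with an unadjusted p under 0.05 in AngIV against DM: it read 7.50, 7.41, 7.34 and 7.49 in DM and 7.71, 7.58, 7.65 and 7.70 in AngIV, without overlap. In NC it read 7.35, 7.36, 7.74 and 7.59, overlapping both, and the change in AngIV against DM of 0.23 ± 0.10 (SE) was not called (limma adjusted p = 0.553). Psmb1, Psmb2 and Psmb3 had changes from -0.13 to 0.17 in the 3 comparisons.

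The 6 ATPases of the cap base divided into 3 with an unadjusted p under 0.05 in AngIV against NC, all higher, and 3 without, where 10.9% of all genes and 16.6% of those with a log2 signal from 6 to 10 were higher. Psmc3 read 9.15, 9.08, 9.37 and 9.24 in NC, 9.53, 9.41, 9.25 and 9.31 in DM and 9.77, 9.55, 9.51 and 9.55 in AngIV. The AngIV arrays lay wholly above NC, and DM lay between and overlapped both. Its change in AngIV against NC was 0.39 ± 0.10 (SE), just outside the threshold (limma adjusted p = 0.0604). It passed with the dimmest 50% of genes left out (limma adjusted p = 0.036), with a trend in the prior (0.0173) and without DM replicate 1 (0.0481). In the other 20 of 23 settings it was not called, with a limma adjusted p of up to 0.142. Psmc1 had 7.49, 7.42, 7.78 and 7.76 in NC and 7.93, 7.94, 7.86 and 7.94 in AngIV, a change of 0.30 ± 0.12, and its DM values of 7.49, 7.98, 7.68 and 7.70 overlapped both. Psmc5 had 7.01, 6.49, 7.01 and 7.02 in NC, 6.97, 6.86, 6.85 and 7.11 in DM and 7.29, 7.09, 7.19 and 7.04 in AngIV. Its change in AngIV against NC was 0.27 ± 0.13 with NC replicate 2, which lay far below the other NC arrays, and 0.14 without it. Psmc2, Psmc4 and Psmc6 had changes of 0.00, 0.02 and -0.07 in the same comparison. Neither Psmc1 nor Psmc5 was called (limma adjusted p = 0.182 and 0.261).

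The lid, which holds the deubiquitinase that strips the chain from the substrate, had 7 of 8 members with a positive change in AngIV against DM and 2 of 8 in DM against NC, where 52.9% and 49.6% of all genes had one. Psmd6 read 6.86, 6.75, 6.76 and 6.89 in NC, 6.60, 6.60, 6.59 and 6.74 in DM and 6.95, 6.78, 6.87 and 6.94 in AngIV. All DM arrays lay below all arrays of both other groups, the 1 member of the 35 for which this held against NC, where 2.45% of genes were lower without overlap. Its change was -0.18 ± 0.09 (SE) in DM against NC (unadjusted p = 0.0549) and 0.25 ± 0.09 in AngIV against DM (unadjusted p = 0.0115, limma adjusted p = 0.487). Psmd7 read 8.91, 9.13, 9.12 and 9.02 in NC, 9.18, 9.06, 8.91 and 8.89 in DM and 9.29, 9.23, 9.19 and 9.26 in AngIV, so that AngIV lay above both other groups on every array. Its change in AngIV against DM was 0.23 ± 0.10 (limma adjusted p = 0.526). Psmd14, the deubiquitinase itself, read 5.95, 5.74, 5.90 and 6.13 in NC, 5.96, 5.96, 5.87 and 6.02 in DM and 6.11, 6.07, 5.93 and 5.82 in AngIV, with all groups overlapping and changes between 0.02 and 0.05. Psmd13 had -0.19 ± 0.11 in DM against NC and 0.23 ± 0.11 in AngIV against DM, neither past an unadjusted p of 0.05. Psmd3, Psmd8, Psmd11 and Psmd12 had changes from -0.19 to 0.12.

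Counting the cap together, 15 of its 17 ATPase, base and lid members had a positive change in AngIV against DM, 4 of them at an unadjusted p under 0.05, and 9 of the 13 measured core members had one, 1 of them at that level. Of all genes 52.9% had a positive change and 5.27% were higher at that level, or 59.9% and 7.7% of those with a log2 signal from 6 to 10, and the core's share of 7.69% was near these. The median log2 change was 0.10 for the cap and 0.02 for the core. It was 0.01 for all genes and 0.04 for those with a log2 signal from 6 to 10. In DM against NC the numbers positive were 8 of 17 and 5 of 13, or 47.1% and 38.5% against 49.6% of all genes. The difference between cap and core was not tested. This split was not recomputed under the other settings, although the total over all members depended on single arrays and on scaling.

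Psme4 encodes PA200, an alternative cap that needs no ubiquitin and is known for the degradation of acetylated histones. It read 7.82, 8.14, 8.19 and 8.17 in NC, 7.55, 7.72, 7.98 and 7.80 in DM and 8.00, 8.40, 8.35 and 8.14 in AngIV. The DM arrays lay below all AngIV arrays and overlapped NC through NC replicate 1 and DM replicate 3. The change was -0.32 ± 0.13 (SE) in DM against NC (unadjusted p = 0.0228, limma adjusted p = 0.371) and 0.46 ± 0.13 in AngIV against DM (unadjusted p = 0.00237, limma adjusted p = 0.372). AngIV and NC overlapped, with a change of 0.14 ± 0.13. Both differences rest on the same 4 DM arrays. With the atrial markers as a covariate the change in AngIV against DM was 0.26 (unadjusted p = 0.081), and with the negative control level as a covariate that in DM against NC was -0.22 (unadjusted p = 0.0626). Psmf1, which encodes the proteasome-binding protein PI31, had changes of 0.08, -0.06 and 0.02 in the 3 comparisons, in the order given here.

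The 3 chaperones that assemble the ATPase ring were the dimmest members. Psmd5 stayed under the background level in each group, with means of 4.63, 4.53 and 4.73, so its level was not resolved. Psmd10, also known as gankyrin, read 5.13, 5.60, 5.60 and 5.61 in NC, 5.67, 5.33, 5.44 and 5.50 in DM and 6.00, 5.71, 5.91 and 5.72 in AngIV. Every AngIV array lay above every array of the other groups. Its DM mean of 5.49 lay below the negative control level of 5.53 and its NC mean of 5.48 at that of 5.48, so no size of change is given. The limma adjusted p was 0.496 against DM and 0.155 against NC. Psmd9 had changes between -0.03 and -0.01.

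The genes around the proteasome gave few differences, and limma called none of the 32 tested in any comparison. Of all genes it called 1.52% higher and 0.623% lower in AngIV against NC, and 0.022% lower in DM against NC. The 6 immunoproteasome and PA28 genes were Psmb8, Psmb9, Psmb10, Psme1 and Psme2, known as interferon targets, and Psme3, which is not known as one. Psme3 had a change of -0.09 ± 0.11 (SE) in AngIV against DM. Among the 6, 2 were higher in AngIV than in DM at an unadjusted p under 0.05. Of all genes 5.27% were, and 7.7% of those with a log2 signal from 6 to 10. Psmb10 read 5.95, 6.51, 6.53 and 6.38 in DM and 7.05, 6.31, 6.80 and 6.74 in AngIV. The change was 0.38 ± 0.16 (SE, limma adjusted p = 0.527), with AngIV replicate 2 inside the DM range. In NC it read 6.15, 6.39, 6.27 and 6.40, overlapping AngIV. Its change in AngIV against NC was 0.42 ± 0.16 (limma unadjusted p = 0.0175, adjusted p = 0.169). The activator gene Psme1 had 0.23 ± 0.10 in AngIV against DM (limma adjusted p = 0.545). Psmb8 had 0.22 ± 0.15 and Psmb9 -0.07 ± 0.15 in the same comparison, while Psmb9 had an unadjusted p of 0.0216 in DM against NC, with a DM mean of 5.69 and an NC mean of 5.30 that lay below the negative controls. AngIV replicate 2 was also the AngIV array with the lowest interferon mean, 5.03, and with the lowest mean of these 6 genes, 6.76. In the other groups the lowest arrays differed. In DM they were replicate 2 for interferon (4.85) and replicate 1 for the 6 genes (6.56), and in NC replicates 2 (4.59) and 3 (6.68). A link between the 2 means was not tested.

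**Figure D5:**
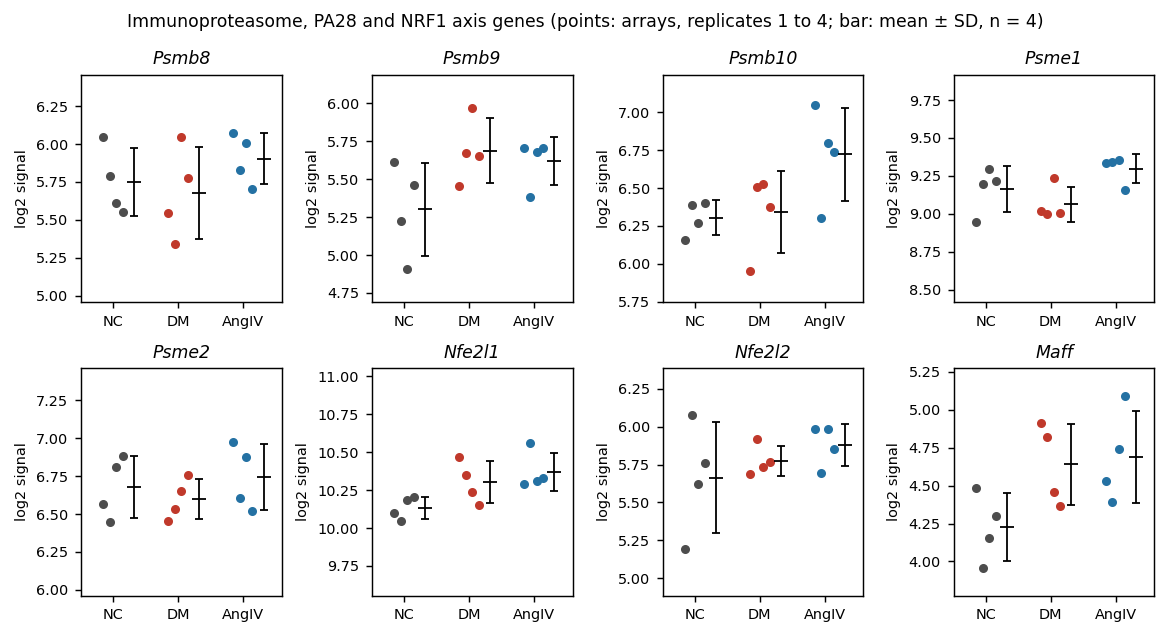
Log2 signal of 8 genes around the proteasome, with 1 point for each array in the order of replicates 1 to 4 and a bar for the mean ± SD (n = 4); every panel spans 1.5 log2 units. Every pair of groups overlaps in every panel, except for Nfe2l1, where the AngIV arrays, from 10.29 to 10.56, lie above the NC arrays, from 10.05 to 10.20.

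Nfe2l1, the gene of NRF1, read 10.10, 10.05, 10.18 and 10.20 in NC, 10.47, 10.35, 10.24 and 10.15 in DM and 10.29, 10.56, 10.31 and 10.33 in AngIV. The AngIV arrays lay above the NC arrays and overlapped DM, with a change of 0.24 ± 0.10 (SE) against NC (unadjusted p = 0.0312, limma adjusted p = 0.218). Nfe2l2, the gene of NRF2, had 0.22 ± 0.15 in the same comparison and was not called. Maff, a small partner of both factors, had an unadjusted p of 0.0258 in DM against NC and 0.0145 in AngIV against NC, with means of 4.23, 4.64 and 4.69 below the negative control level in all 3 groups. Of the 9 genes of this axis, the p97 unfoldase among them, 2 were higher at an unadjusted p under 0.05 in AngIV against NC (22.2%, against 10.9% of all genes and 16.6% of those with a log2 signal from 6 to 10), Nfe2l1 and Maff. Of the 5 chaperones that assemble the core, Psmg2 had a lower value in AngIV than in NC, -0.27 ± 0.10, without overlap (unadjusted p = 0.0202, limma adjusted p = 0.179). None of the 11 tested receptors, deubiquitinases and other partners, Usp14 and Ubqln1 among them, had an unadjusted p under 0.05 in any comparison. Of all genes 5.62% were higher and 5.08% lower at that level in DM against NC. The shares were 5.27% and 3.51% in AngIV against DM, and 10.9% and 7.74% in AngIV against NC. Usp14, with means of 5.10, 5.22 and 5.36, lay below the negative control level in all 3 groups, as did Ubqln2. Their changes were thus not resolved.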

How the data were processed

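The values for the 12 arrays, 1 per probe set, come as deposited by the authors, on a log2 scale as judged from their range. The tool was RMA (robust multi-array average), per the submitters' processing notes. Its version, the probe set definitions and the build are not given in the sources used here. A change in total mRNA per sample is hidden by the quantile step of RMA.

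Of 22206 transcript probe sets 19572 had 1 gene symbol in the platform annotation, 2634 none and 0 several. They named 19505 genes, with the probe set of highest mean kept for the 55 genes with several. The dimmest 30% of genes (mean under 3.40) were left out. Group means over all 12 arrays were compared with limma 3.58.1 in R 4.3.3 (lmFit, eBayes), with Benjamini-Hochberg adjustment over 13653 genes. The method was tried on simulated data with independent genes and with changes larger than most of those given here. That simulation held no shift shared by genes on an array. Array number limits the precision: the median standard error of a member's change was 0.104 on the log2 scale. A gene whose group mean lay under the 95th percentile of 5222 negative control probe sets is given no size of change.

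All 36 members could be named; values on every array are given for those with an unadjusted p under 0.05 in a comparison and for catalytic or ubiquitin-binding subunits. Members and lists were chosen with earlier results of these data known. Alternatives covered filter, prior, weights, scaling, covariates, the block and leaving out each array.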

Additional observations from a re-analysis of the deposited data

Results flagged for a closer look

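Chance sets the highest or lowest of 4 arrays this far from the rest in about 1 group in 20. Among 108 groups, 36 quantities (the 35 members and their mean) in each of 3 groups, 11 held such an array. Psma5 on AngIV replicate 3 had a log2 signal of 7.82, above the 7.44 to 7.48 of the other AngIV arrays. Psmb1 on DM replicate 3 had a log2 signal of 8.75, below the 8.99 to 9.02 of the other DM arrays. Psmb2 on AngIV replicate 4 had a log2 signal of 8.68, above the 8.46 to 8.47 of the other AngIV arrays. Psmc1 on AngIV replicate 3 had a log2 signal of 7.86, below the 7.93 to 7.94 of the other AngIV arrays. Psmc3 on AngIV replicate 1 had a log2 signal of 9.77, above the 9.51 to 9.55 of the other AngIV arrays. Psmc5 on NC replicate 2 had a log2 signal of 6.49, below the 7.01 to 7.02 of the other NC arrays. Psmd6 on DM replicate 4 had a log2 signal of 6.74, above the 6.59 to 6.60 of the other DM arrays. Psmd11 on DM replicate 3 had a log2 signal of 7.53, below the 7.62 to 7.64 of the other DM arrays. Psmd5 on DM replicate 4 had a log2 signal of 4.86, above the 4.40 to 4.45 of the other DM arrays. Psmd10 on NC replicate 1 had a log2 signal of 5.13, below the 5.60 to 5.61 of the other NC arrays. Psme4 on NC replicate 1 had a log2 signal of 7.82, below the 8.14 to 8.19 of the other NC arrays. The mean of the members held no such array in any group. For Psmc5 the change in AngIV against NC was 0.27 with NC replicate 2 and 0.14 without it. For Psme4 the change in DM against NC was -0.32 with NC replicate 1 and -0.40 without it.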

How the results depend on the processing

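Each of the 16 log2 changes of members at an unadjusted p under 0.05 was recomputed under 23 settings, and all 368 values kept their direction. At the adjusted threshold 348 kept their side, 17 lost it (Psma6 and Psmd4 in AngIV against NC) and 3 gained it (Psmc3 in AngIV against NC).

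In DM against NC the number of members higher at an unadjusted p under 0.05 was 1. It was 2 with a trend in the prior, centred on cardiomyocyte markers, or with the negative control level as covariate. Leaving out 1 array gave 0 to 2. The number lower was 1, 2 with the dimmest 50% left out, a trend in the prior or array weights, and 0 with the negative control level as covariate; leaving out 1 array gave 0 to 2. In AngIV against DM the number higher was 7. It was 3 centred on cardiomyocyte markers, 3 with the atrial marker mean as covariate and 4 with the replicate block. Leaving out 1 array gave 2 to 9. Of all genes 5.27% were higher in the main fit, 2.81%, 5.06% and 4.75% under those settings. Leaving out 1 array gave 3.47% to 7.19% of all genes. The number of members lower was 0, and leaving out 1 array gave 0 to 1. In AngIV against NC the number higher at an adjusted p under 0.05 was 2, and 0 with no filter on dim genes, where more genes are tested, 1 with the atrial marker mean as covariate and 0 with the replicate block; leaving out 1 array gave 0 to 3. The other causes were not tested. The median log2 change of the members in AngIV against DM was 0.07, and from 0.02 (centred on cardiomyocyte markers) to 0.09 under the settings tried. In DM against NC it was -0.02, and from -0.07 to 0.02 with a change of sign. In AngIV against NC it was 0.07, and from 0.04 to 0.09. The number with a positive change ran from 21 to 28, from 12 to 20 and from 21 to 26 in that order of comparisons.

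Of all genes at an unadjusted p under 0.05, AngIV against DM had 720 higher with 479 lower, and 383 and 820 centred on cardiomyocyte markers. DM against NC had 767 and 694, and 1052 and 467 under that centring. Over all genes, 3 were called in DM against NC, and 20 with the dimmest 50% left out, 29 with a trend in the prior and 5 with only the groups compared. In AngIV against NC 293 were called, and 492, 576 and 466 under those settings and 195 with the negative control level as covariate. Deviations of same-numbered arrays correlated from -0.12 to 0.21 across groups, and those of differently numbered arrays from -0.21 to 0.23. No pairing by number was visible, but with 4 arrays a group these correlations cannot exclude one. The covariate on negative controls was chosen after seeing the data. The number of arrays limits the precision, and Psmd5 and, in DM, Psmd10 were not resolved from background.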
